A study of Mus musculus with 24 samples.

Results

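The genes described here carry a cell through mitosis. A list of 52 gene symbols was given: subunits of the spindle checkpoint, the kinetochore, the chromosomal passenger complex and condensin, the kinases and cyclins of mitotic entry, regulators of anaphase and cohesion, proteins of the spindle and of cytokinesis, and a few further proliferation genes. A gene was measured where a probe set of the array was annotated to its symbol and to no other. This held for 51 of the 52, through 113 probe sets, among 18194 genes and 45101 probe sets in all. Ccnb1, which encodes cyclin B1, had no such probe set and was not analysed here. All 51 passed the filter on low values (at least 2 of 13 arrays at or above 4.64, the median of all values), so the tests below cover 51 of the 12765 genes tested.

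Mitosis divides the copied chromosomes between daughter cells. Kinetochores form on centromeres and catch spindle microtubules, the checkpoint holds back the anaphase-promoting complex until they are attached, condensin compacts the chromosomes, and separase then cuts cohesin before the midzone and the contractile ring split the cell. Many of these transcripts are made mostly in the late part of the cell cycle, so their level in a bulk population follows how many of its cells are cycling. Haematopoietic stem cells of adult marrow are largely quiescent, while the progenitors they give rise to divide often.

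RNA was taken from cells sorted from the marrow of 129ola mice aged 8 to 12 weeks and hybridised to Affymetrix expression arrays, with 35000 to 100000 cells per preparation. Hypomorph mice were Dnmt1-/chip, with a null allele and an allele of reduced function of Dnmt1, the maintenance DNA methyltransferase, and wildtype mice were Dnmt1+/+. The 5 groups were haematopoietic stem cells (HSC) of hypomorph (3 arrays) and wildtype (2 arrays) mice, myeloid progenitors (MP) of hypomorph (3 arrays) and wildtype (3 arrays) mice, and B cell progenitors of wildtype mice (2 arrays). The reduced Dnmt1 is carried by the whole animal and not by a chosen cell type. Whether each array of a group stands for a mouse of its own is not stated in the labels. The p-values therefore speak of the spread among arrays, which may be technical. Values are log2 intensities, and a difference of 1 is a change of 2-fold in intensity.

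Dnmt1 itself was 8.94 ± 0.42 (SD, n = 3) in hypomorph and 11.69 ± 0.15 (SD, n = 2) in wildtype HSC, and 8.14 ± 0.12 (SD, n = 3) against 11.48 ± 0.22 (SD, n = 3) in MP, on its probe set with the highest mean. It was lower in the hypomorph by 2.75 in HSC and 3.34 in MP on the log2 scale (limma, adjusted p 2.85e-05 and 7.28e-06). The labelled cell types were borne out by their markers: all 8 tested granulocyte-monocyte progenitor markers, Mpo, Ctsg and Prtn3 among them, were higher in wildtype MP than HSC, and all 9 B lineage markers, Vpreb1, Igll1 and Cd79b among them, were higher in B progenitors than HSC. Of 9 stem cell markers, 6 were lower in MP and 9 in B progenitors than in wildtype HSC. Array medians lay between 4.56 and 4.74, and the difference between 3′ and 5′ probe sets of Gapdh between 2.82 and 4.91. The third hypomorph HSC array stood apart in this sign of RNA quality, with 4.91 for Gapdh and 5.07 for Actb, where the other arrays reached at most 4.34 and 4.02. Its part in the results was not tested beyond leaving it out, which kept 42 of the 43 calls given next. The Y-linked gene Eif2s3y was between 2.35 and 2.87 on 4 arrays, among them the second wildtype HSC array, and between 6.95 and 10.16 on the other 9. These 9 include all 3 hypomorph HSC arrays (9.31, 6.95 and 8.10), so the HSC groups were not alike in this gene. The results without that wildtype array are given below, and the part of sex was not tested.

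In HSC, 43 of the 51 mitosis genes were higher in the hypomorph and 0 were lower (limma, Benjamini-Hochberg adjustment over 12765 genes, adjusted p under 0.05, as in every call below). Over all genes tested, 10.8% were called in this comparison, with 5.37% called higher and 5.44% lower. The median difference of the 51 was 1.26 on the log2 scale, against -0.11 over all genes, and every one of the 51 was above zero. In 48 of them all 3 hypomorph arrays lay above both wildtype arrays, which held for 13.1% of all genes tested. The mean level over the 51 genes was 7.79 ± 0.09 (SD, n = 2) in wildtype HSC and 9.22 ± 0.08 (SD, n = 3) in hypomorph HSC. In bulk RNA, more cells in mitosis and more of these transcripts per cell cannot be told apart.

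**Figure D1:**
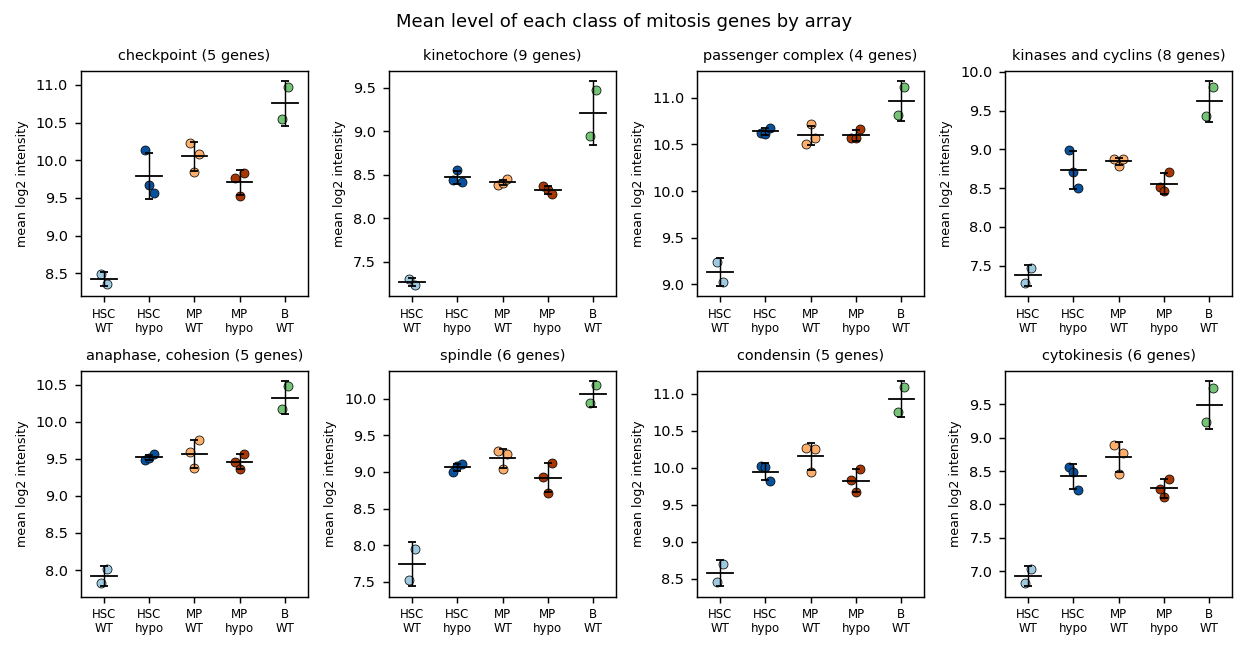
Mean log2 intensity of the genes of each class on every array (y axis), with 1 panel for each of 8 classes and the 5 groups on the x axis (WT, wildtype; hypo, hypomorph). Points are arrays, long bars are group means and whiskers are SD (n = 2 or 3). In every panel both wildtype HSC arrays lie lowest and both B progenitor arrays highest, and the hypomorph HSC arrays lie at or near the level of the MP arrays.

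Many genes of this kind are known to share a pair of short promoter elements, the CCAAT box, which binds NF-Y, and the cell cycle gene homology region (TTTGAA or TTTAAA), which binds complexes of the MuvB core. Promoters from 250 bases before to 50 bases after the start were available for 42 of the 51 genes in the RefSeq table (GRCm38.p6), 47 promoters in all, and both strands were searched for these letters. CCAAT was found in 37 of the 47 (78.7%), against 37.4% of all 32851 promoters in the table. TTTGAA or TTTAAA was found in 35 (74.5%, against 27.6%); TTTGAA alone was in 33 and TTTAAA, which reads the same on both strands, in 8. Both kinds were present in 31 of the 47 promoters (66.0%), against 10.7% of all promoters. Promoters of genes that were called in HSC held both kinds in 24 of 39 cases, and those of genes that were not called in 7 of 8. A match of letters is a description of the sequence and not a binding site shown here.

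The 250 bases before the start are printed for 5 called genes, followed by Bub3, the gene with the smallest difference in HSC among the 51. The 5 had the largest differences in HSC among called genes whose first promoter in the RefSeq table held both kinds of element. Esco2 and Aurkb had no promoter in that table and could not be chosen. Each sequence runs 5′ to 3′ along the gene in lower case, with matches to CCAAT and to either form of the other element on either strand in capitals (ATTGG and TTCAAA are the reverse-strand forms of CCAAT and TTTGAA).
Depdc1a, chr3:159495183-159495432, plus strand: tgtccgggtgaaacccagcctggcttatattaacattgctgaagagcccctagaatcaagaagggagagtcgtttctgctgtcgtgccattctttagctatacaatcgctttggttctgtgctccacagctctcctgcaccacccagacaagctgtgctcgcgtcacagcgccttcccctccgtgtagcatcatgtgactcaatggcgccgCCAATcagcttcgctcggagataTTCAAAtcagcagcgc
Ect2, chr3:27153879-27154128, minus strand: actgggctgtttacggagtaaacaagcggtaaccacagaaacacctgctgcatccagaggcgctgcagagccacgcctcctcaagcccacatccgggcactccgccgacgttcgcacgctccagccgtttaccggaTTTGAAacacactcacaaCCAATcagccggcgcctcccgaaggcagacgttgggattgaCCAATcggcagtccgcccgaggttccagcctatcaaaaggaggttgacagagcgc
Ncapg, chr5:45669675-45669924, plus strand: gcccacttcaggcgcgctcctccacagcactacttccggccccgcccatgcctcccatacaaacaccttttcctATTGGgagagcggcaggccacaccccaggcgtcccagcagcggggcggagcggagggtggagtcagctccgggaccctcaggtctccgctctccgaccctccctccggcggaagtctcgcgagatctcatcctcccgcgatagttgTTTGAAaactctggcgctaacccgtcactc
Smc2, chr4:52438971-52439220, plus strand: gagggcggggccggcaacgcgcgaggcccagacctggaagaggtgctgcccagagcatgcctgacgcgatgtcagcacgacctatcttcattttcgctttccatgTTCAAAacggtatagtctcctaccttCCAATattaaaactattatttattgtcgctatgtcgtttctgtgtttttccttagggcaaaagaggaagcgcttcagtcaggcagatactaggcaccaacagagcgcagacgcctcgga
Cenpf, chr1:189688087-189688336, minus strand: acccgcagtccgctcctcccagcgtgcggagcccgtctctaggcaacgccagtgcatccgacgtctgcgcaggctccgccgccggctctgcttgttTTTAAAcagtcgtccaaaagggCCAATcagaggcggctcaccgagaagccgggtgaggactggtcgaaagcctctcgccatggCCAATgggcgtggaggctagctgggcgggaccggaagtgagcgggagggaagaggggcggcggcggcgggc
Bub3, chr7:131560120-131560369, plus strand: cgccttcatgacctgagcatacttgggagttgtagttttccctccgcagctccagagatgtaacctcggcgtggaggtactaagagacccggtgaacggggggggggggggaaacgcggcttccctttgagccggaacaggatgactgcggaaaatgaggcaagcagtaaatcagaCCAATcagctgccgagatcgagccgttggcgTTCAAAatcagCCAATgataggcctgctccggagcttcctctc
In Depdc1a the CCAAT match began 39 bases and the TTCAAA match 16 bases before the start. In Ncapg the elements lay 176 and 30 bases before it, with CCAAT on the reverse strand. Cenpf was the only promoter of the 6 with a TTTAAA match in the printed stretch. Bub3, which differed by 0.27 between genotypes in HSC on its brightest probe set, held 2 CCAAT matches and 1 TTTGAA match in the same stretch. The 5 other promoters shown were chosen to hold both kinds of element, so their likeness to that of Bub3 says nothing of the called genes.

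Of the 5 spindle checkpoint genes, 4 rose in hypomorph HSC. Bub1, the kinase that gathers checkpoint proteins at kinetochores, was at 9.46, 8.50 and 8.32 on the hypomorph HSC arrays and at 6.20 and 5.84 on the wildtype HSC arrays. All hypomorph arrays lay more than 2 log2 units above both wildtype arrays, and the difference was 2.74 ± 0.35 (SE; limma, adjusted p 0.000351). Mad2l1, which binds and inhibits Cdc20, differed by 1.36 ± 0.29 (adjusted p 0.00977), Ttk, the kinase at the head of the checkpoint, by 1.25 ± 0.34 (0.0300), and Bub1b, a subunit of the mitotic checkpoint complex, by 1.21 ± 0.21 (0.00295). Mad2l1 was not called without the second wildtype HSC array (adjusted p 0.115), nor Ttk without the first (0.167) or without either of hypomorph HSC arrays 1 and 2 (0.0670 and 0.0757). Bub3, the partner of Bub1 and Bub1b, was at 11.95, 11.94 and 11.88 in hypomorph and 11.77 and 11.54 in wildtype HSC. Its arrays did not overlap, but the difference of 0.27 ± 0.18 was not called (limma, adjusted p 0.377).

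In MP, the same checkpoint genes showed no called difference. Bub1 was at 8.36, 8.28 and 8.48 in hypomorph and 9.49, 8.48 and 9.29 in wildtype MP, a difference of -0.72 ± 0.31 (limma, adjusted p 0.307). The lowest wildtype array met the highest hypomorph array, so the groups overlapped. Ttk was the 1 checkpoint gene with every hypomorph MP array below every wildtype MP array (-0.63 ± 0.30, adjusted p 0.338), and Bub3 had the smallest difference (0.04 ± 0.16).

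Of the 9 kinetochore and centromere genes, 8 rose in hypomorph HSC, by 0.87 to 1.69. Cenpf, a large protein of the outer kinetochore, was at 8.94, 9.20 and 9.30 in hypomorph and 7.04 and 7.87 in wildtype HSC. The hypomorph arrays lay close together and above both wildtype arrays, and the difference was 1.69 ± 0.26 (limma, adjusted p 0.00149). The 4 subunits of the Ndc80 complex, which holds the microtubule, all rose: Nuf2 by 1.63 ± 0.21, Spc24 by 1.40 ± 0.28, Spc25 by 0.99 ± 0.19 and Ndc80 by 0.92 ± 0.21, with adjusted p from 0.000404 to 0.0143. Cenpk and Cenph of the constitutive centromere network rose by 1.52 ± 0.27 and 1.50 ± 0.25. Without the second wildtype HSC array Ndc80, Spc24, Spc25 and Cenpk were not called (adjusted p 0.140, 0.0885, 0.0504 and 0.0622). Cenpa, the histone H3 variant that marks centromeres, rose by 0.87 ± 0.25 with an adjusted p of 0.0414. That call was lost in 12 of 24 other settings, among them the removal of either wildtype HSC array (adjusted p 0.155 without the first and 0.111 without the second).

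Cenpe, the kinetochore motor that moves chromosomes to the spindle equator, was the kinetochore gene without a call in HSC. It was at 7.23, 7.94 and 7.39 in hypomorph and 7.26 and 7.21 in wildtype HSC. The groups overlapped, the wildtype arrays being nearly equal, and the difference of 0.29 ± 0.26 was not called (limma, adjusted p 0.521). On its other, dimmer probe set the difference was 0.52, with a wildtype HSC mean of 3.26. Between wildtype cell types Cenpe was called, with 8.67, 8.51 and 8.73 in MP (1.40 ± 0.26 above HSC, adjusted p 0.00105). In MP its hypomorph arrays (8.18, 7.72 and 8.25) were all below the wildtype ones, but the difference of -0.59 ± 0.23 was not called (adjusted p 0.273). The kinetochore gene with the largest MP difference was Spc24 (0.62 ± 0.25, adjusted p 0.280), with overlapping arrays, and the smallest was that of Cenpk (0.03 ± 0.24).

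All 4 members of the chromosomal passenger complex, which corrects faulty microtubule attachments and later acts at the midzone, rose in hypomorph HSC. Aurkb, its kinase, was at 9.74, 9.34 and 9.06 in hypomorph and 7.09 and 6.92 in wildtype HSC. The gap between the groups was far wider than the spread within either, with a difference of 2.37 ± 0.24 (limma, adjusted p 7.2e-05). Cdca8 (borealin) rose by 1.39 ± 0.22, Birc5 (survivin) by 1.29 ± 0.27 and the scaffold Incenp by 1.00 ± 0.21. Birc5 was not called without the second wildtype HSC array (adjusted p 0.134). The calls of Incenp and Cdca8 varied with the probe set: on others of the same genes the differences were 0.44 (adjusted p 0.490) and 0.89 (0.122). Further probe sets past the filter differed by 0.78 for Incenp and 1.13 for Cdca8. In MP, Aurkb differed by -0.52 ± 0.21 (adjusted p 0.291), with every hypomorph array below every wildtype array, and Incenp by 0.10 ± 0.19.

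Of the 8 tested kinases, cyclins and phosphatase of mitotic entry, 7 rose in hypomorph HSC. Melk, a kinase of proliferating progenitors, was at 8.83, 8.81 and 8.50 in hypomorph and 7.07 and 6.15 in wildtype HSC. The wildtype arrays differed by almost 1 log2 unit from each other, and both lay below all hypomorph arrays (2.10 ± 0.28, limma, adjusted p 0.00048). Nek2, a centrosomal kinase, rose by 1.62 ± 0.33, Ccna2 (cyclin A2) by 1.43 ± 0.20, Cdc25c, the phosphatase that activates Cdk1, by 1.39 ± 0.26, Plk1 by 1.26 ± 0.22, Ccnb2 (cyclin B2) by 1.15 ± 0.28 and Aurka, the spindle pole kinase, by 1.13 ± 0.23. Without the second wildtype HSC array Nek2, Ccnb2 and Aurka were not called (adjusted p 0.0742, 0.0720 and 0.0749), and Ccnb2 was also lost without the first (0.0899) or without the second hypomorph HSC array (0.0760). Cdk1, the kinase that drives entry into mitosis, was at 10.12, 9.54 and 9.22 in hypomorph and 8.40 and 9.25 in wildtype HSC. Its second wildtype array reached the lowest hypomorph array, and the difference of 0.80 ± 0.31 was not called (adjusted p 0.110). In MP the differences of this class ran from -0.56 ± 0.29 for Nek2 (adjusted p 0.381) to -0.08 ± 0.25 for Ccnb2 in size, with 7 of 8 below zero and 0 called.

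The 5 genes of anaphase and cohesion all rose in hypomorph HSC. Esco2, the acetyltransferase that establishes cohesion between sister chromatids, was at 5.88, 6.54 and 6.16 in hypomorph and at 3.01 and 2.70 in wildtype HSC. Both wildtype arrays were below 4.64, the median of all values, so the difference of 3.34 ± 0.46 (limma, adjusted p 0.00061) was taken against a level that may be background. Cdc20, the activator of the anaphase-promoting complex, rose by 1.37 ± 0.24, its E2 enzyme Ube2c by 1.20 ± 0.24, the separase Espl1 by 1.07 ± 0.29 and the securin Pttg1 by 1.02 ± 0.20. The call of Espl1 was lost without the first wildtype HSC array (0.50, adjusted p 0.250), without hypomorph HSC array 1 or 2 (0.0680 and 0.0852) or without the third wildtype MP array (0.0504), and that of Cdc20 without the second wildtype HSC array (0.0504).

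Esco2 also had the largest difference of the 51 genes in MP. It was at 5.32, 5.24 and 5.52 in hypomorph and 6.76, 5.14 and 7.24 in wildtype MP. The hypomorph arrays lay close together, while 1 wildtype array was below all of them, and the difference of -1.02 ± 0.41 was not called (limma, adjusted p 0.280). Without that second wildtype MP array the difference was -1.64 and was called (adjusted p 0.0161). Espl1 had the smallest MP difference of its class (-0.09 ± 0.26).

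Of 6 spindle genes, 4 rose in hypomorph HSC. Kif2c, the kinesin that takes apart microtubule ends at centromeres, was at 9.63, 9.84 and 10.67 in hypomorph and 7.92 and 8.15 in wildtype HSC. All hypomorph arrays were above both wildtype arrays (2.01 ± 0.30, limma, adjusted p 0.000998), but on another probe set of the gene the difference was 0.94 and not called (adjusted p 0.354). Kif11, the motor that pushes spindle poles apart, rose by 1.53 ± 0.25, Nusap1, which bundles microtubules, by 1.47 ± 0.35, and the chromokinesin Kif22 by 0.94 ± 0.24. Nusap1 and Kif22 were not called without the second wildtype HSC array (adjusted p 0.114 and 0.190) or the second hypomorph HSC array (0.0545 and 0.0788), nor Nusap1 without the first wildtype (0.0523) and Kif22 without the third hypomorph array (0.0601). Kif4, a second chromokinesin, was at 7.69, 7.82 and 7.45 in hypomorph and 6.21 and 7.46 in wildtype HSC. The second wildtype array lay within the hypomorph range, and the difference of 0.82 ± 0.31 was not called (adjusted p 0.106). Tpx2, the activator of Aurka on the spindle, was at 8.82, 8.74 and 8.26 against 6.72 and 8.17, and its 1.16 ± 0.35 missed the threshold (adjusted p 0.0512). On its probe set with the largest spread the difference was 2.01 and was called (adjusted p 0.00119). With centring or the stricter filter it was called on the first, and also with array weights, whose estimation did not converge. With only the HSC arrays in the fit, or with the mean of its probe sets, Tpx2 was not called. On dimmer probe sets of Tpx2 that also passed the filter the differences were -0.81 and -0.03. In MP, Nusap1 had the smallest adjusted p of the 51 (-1.01 ± 0.31, adjusted p 0.197), with all hypomorph arrays below all wildtype arrays. On its other, dimmer probe set the MP difference had the opposite sign (0.47). Kif22 had the smallest MP difference of the class (0.12 ± 0.22).

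Of the 5 subunits of condensin I, 4 rose in hypomorph HSC. Ncapg, a HEAT repeat subunit, was at 7.87, 8.08 and 8.10 in hypomorph and 5.77 and 5.90 in wildtype HSC. The arrays of each group lay within 0.3 log2 units of each other and the groups 2.19 ± 0.22 apart (limma, adjusted p 7.6e-05). The ATPase subunits Smc2 and Smc4, which condensin II shares, rose by 1.85 ± 0.38 and 1.04 ± 0.26, and the kleisin Ncaph by 0.84 ± 0.20. Ncapg and Smc2 rested on the probe set: on the one with the largest spread over the arrays the differences were 0.86 (adjusted p 0.193) and 1.20 (0.128), neither of them called. Without the second wildtype HSC array Smc2, Smc4 and Ncaph were no longer called (adjusted p 0.115, 0.0680 and 0.0742), and without the first Smc4 and Ncaph were not (0.0908 and 0.0546); Smc4 was also lost without the second hypomorph HSC array (0.0809). Ncapd2, the other HEAT repeat subunit, was at 10.42, 10.29 and 10.15 in hypomorph and 8.62 and 10.06 in wildtype HSC. Its groups did not overlap but its wildtype arrays were 1.44 apart, and the difference of 0.95 ± 0.31 was not called (adjusted p 0.0704). In MP, Smc2 differed by -0.74 ± 0.34 (adjusted p 0.327) and Ncaph by 0.10 ± 0.18.

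Top2a, the topoisomerase that untangles sister chromatids, and Mki67, the coat protein of mitotic chromosomes, rose in hypomorph HSC by 1.25 ± 0.33 and 1.20 ± 0.26 (limma, adjusted p 0.0280 and 0.0106). Top2a was at 12.38, 11.88 and 11.34 in hypomorph and 10.18 and 11.05 in wildtype HSC. The groups did not overlap, though its wildtype arrays were nearly 1 log2 unit apart, and its call was lost without hypomorph HSC array 1 or 2 (adjusted p 0.0643 and 0.0788) or the first wildtype array (0.177). Mki67 was not called without the second wildtype array (0.0608). In MP the differences were -0.50 ± 0.30 for Top2a and -0.44 ± 0.23 for Mki67, neither of which was called.

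Of 6 cytokinesis genes, 4 rose in hypomorph HSC. Ect2, the exchange factor that activates RhoA at the cell equator, was at 8.17, 9.63 and 9.54 in hypomorph and 6.40 and 5.45 in wildtype HSC. The lowest hypomorph array was still above both wildtype arrays, which differed by almost 1 log2 unit (3.19 ± 0.43, limma, adjusted p 0.00061). Racgap1, a subunit of centralspindlin, rose by 1.63 ± 0.25, the midzone kinesin Kif20a by 1.37 ± 0.31 and the microtubule bundler Prc1 by 1.00 ± 0.22. On the probe set with the largest spread Racgap1 (1.31, adjusted p 0.0580) and Prc1 (0.96, 0.127) were not called. Without the first wildtype HSC array Kif20a and Prc1 were not called (adjusted p 0.0720 and 0.0585). Anln (anillin), the scaffold of the contractile ring, was at 8.20, 8.36 and 7.66 in hypomorph and 6.05 and 7.61 in wildtype HSC. The second wildtype array came within 0.1 of the lowest hypomorph array, and the difference of 1.25 ± 0.38 was not called (adjusted p 0.0538).

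Kif23, the motor subunit of centralspindlin and the partner of Racgap1, followed another pattern. It was at 8.50, 7.72 and 7.60 in hypomorph and 7.31 and 7.50 in wildtype HSC. The arrays did not overlap, but the difference of 0.53 ± 0.27 was not called (limma, adjusted p 0.234). In MP it was at 7.01, 7.06 and 7.26 in hypomorph and 7.88, 7.57 and 7.68 in wildtype cells. Every hypomorph MP array was below every array of the other 4 groups, and the MP difference of -0.60 ± 0.24 was not called either (adjusted p 0.283). It was the 1 gene of the 51 whose lowest group mean was not that of wildtype HSC. Kif20a had the largest MP difference of the class (-0.68 ± 0.28, adjusted p 0.283) and Racgap1 the smallest (-0.19 ± 0.22), and all 6 cytokinesis genes were below zero in MP.

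Depdc1a, a mitotic gene outside these classes, had the largest difference of all 51 in HSC. It was at 5.98, 7.02 and 7.85 in hypomorph and 3.09 and 3.03 in wildtype HSC. As for Esco2, both wildtype arrays were below 4.64, and the difference was 3.89 ± 0.52 (limma, adjusted p 0.000499). In MP it was at 5.15, 6.46 and 6.46 in hypomorph and 7.34, 6.19 and 7.13 in wildtype cells, overlapping groups with a difference of -0.86 ± 0.46 (adjusted p 0.399).

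**Figure D2:**
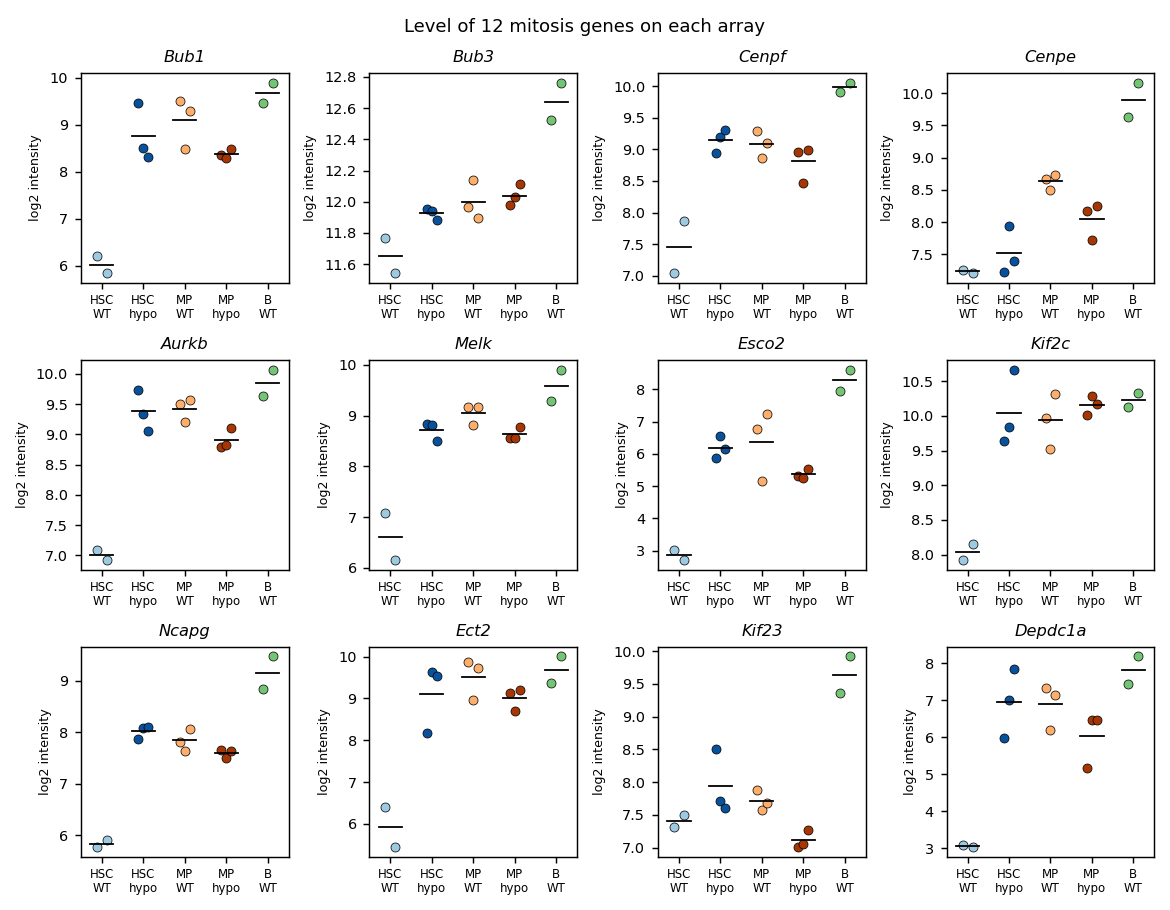
Log2 intensity on each of the 13 arrays (points, y axis) of 12 mitosis genes by group (x axis; WT, wildtype; hypo, hypomorph), with bars at group means (n = 2 or 3). Most of the genes are lowest on the wildtype HSC arrays, while Bub3, Cenpe and Kif23 show little distance between the HSC groups and B progenitors are highest in nearly every panel.

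The 8 genes that were not called in HSC fell into different cases. For Bub3, Cenpe and Kif23 the differences were small, between 0.27 and 0.53. For Cdk1, Kif4, Tpx2, Ncapd2 and Anln they were between 0.80 and 1.25, but the 2 wildtype HSC arrays were more than 0.8 apart, with the second array the higher in each. A distance of that size also occurred in 6 of the 43 called genes (Cenpf, Cdc25c, Melk, Espl1, Top2a and Ect2), and it enters the standard error and so the call itself. Without the second wildtype HSC array 4 of the 5 (Kif4, Tpx2, Ncapd2 and Anln) were called, with differences of 1.44 to 2.03, but 17 of the 43 calls were lost and 30 genes were called in all. Leaving out each of the 13 arrays in turn kept 21 of the 43 calls throughout, among them Bub1, Bub1b, Cenpf, Nuf2, Aurkb, Melk, Esco2, Kif11, Ncapg, Ect2, Racgap1 and Depdc1a. This holds for the brightest probe set of each gene: on the one with the largest spread 37 of the 43 calls remained, without Incenp, Kif2c, Ncapg, Prc1, Racgap1 and Smc2. With only the 5 HSC arrays in the fit, 10 of the 43 were called. The share of all genes called in that fit is not given here, so the loss cannot be read as particular to these genes.

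**Figure D3:**
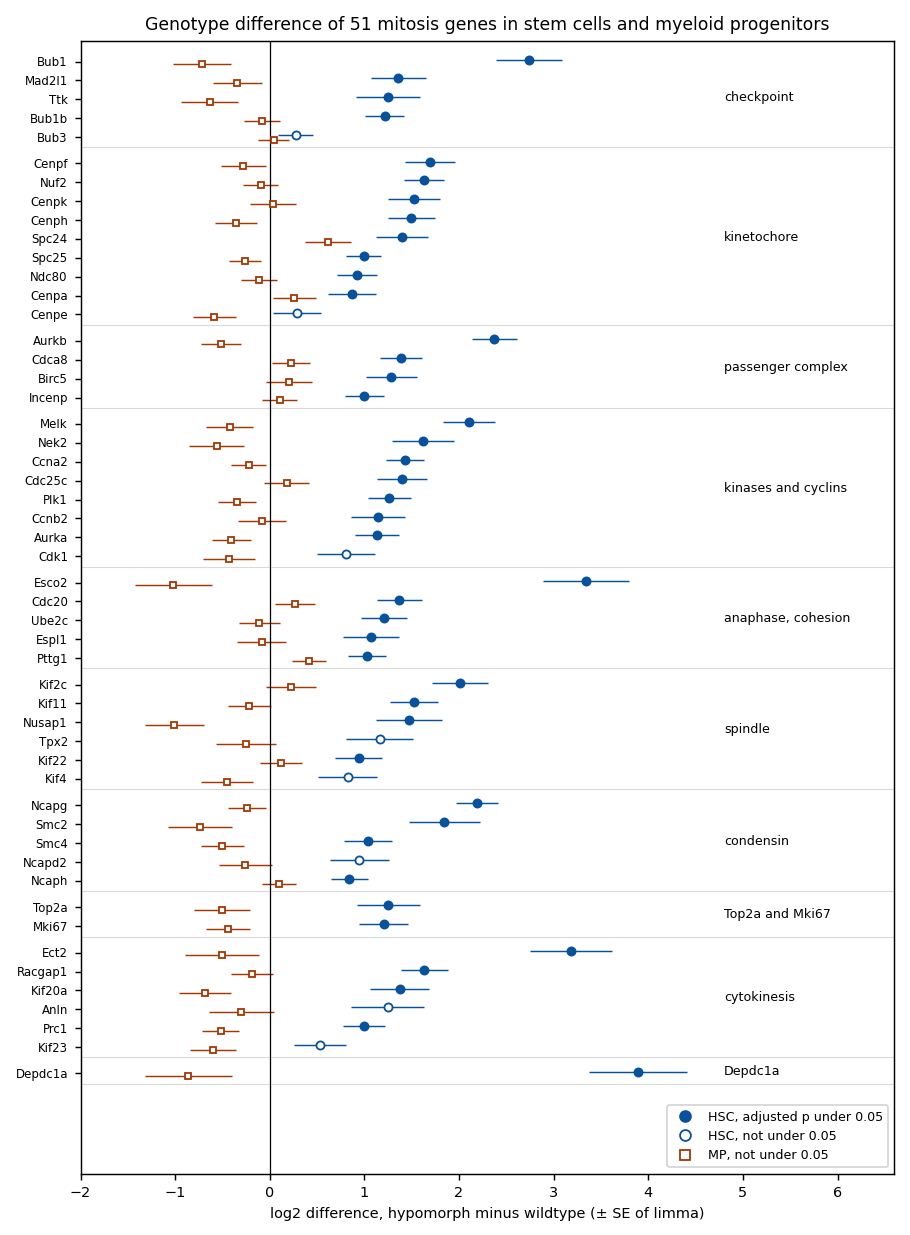
Log2 difference between hypomorph and wildtype (x axis, ± SE of limma) in HSC (blue circles) and MP (brown squares) for each of the 51 genes, ordered by class and by size in HSC (y axis). Filled symbols are called at an adjusted p under 0.05. All HSC values lie right of zero, 43 of them filled, while 38 of the 51 MP values lie left of zero with 0 filled.

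In MP, 0 of the 51 genes were called between genotypes (limma), where 0.588% of all genes tested were called. At an unadjusted p under 0.05, 2 genes were higher and 10 lower. The median difference was -0.27 on the log2 scale, and 38 of the 51 were below zero, against 52.2% of all genes tested. All hypomorph arrays were below all wildtype arrays in 15 of the 51, against 16.3% of all genes, and above them in 2 (Cenpa and Pttg1), against 11.4%. With array weights 25 of the 51 were called, 4 higher and 21 lower, and so were 36.1% of all genes tested. The estimation of those weights stopped before it converged, and gave 1 hypomorph HSC array a weight of 51.9 while the weights of the others ran from 0.236 to 6.91.

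The sign of an MP difference went with the kind of probe set. Probe sets whose names end in x_at or s_at hold probes that can match other transcripts. They stood for 13 of the 51 genes, of which 9 were above zero in MP, whereas 4 of the other 38 were. For 12 of the 13 another probe set without that suffix had passed the filter, and on it 2 were above zero and 10 below. Kif22 went from 0.12 to -0.91, Kif2c from 0.23 to -0.79 and Bub3 from 0.04 to -0.88. Over all genes tested, 42.8% were below zero on probe sets of this kind and 53.4% on others. On the replacement probe sets 39 genes were still called in HSC and 0 in MP. This setting was chosen after the data had been seen. Of 30 genes with several probe sets past the filter, 3 (Cenpa, Kif2c and Tpx2) had probe sets of opposite sign in HSC and 19 in MP.

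**Figure D4:**
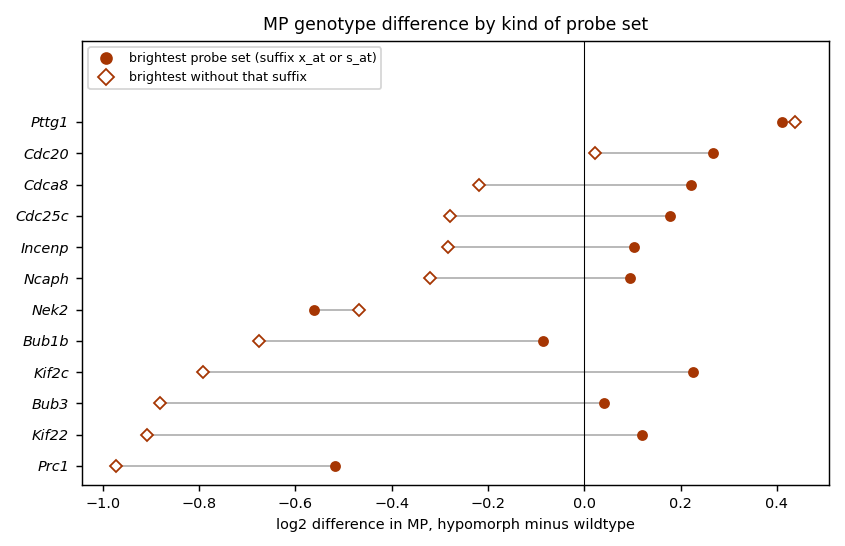
Log2 difference between hypomorph and wildtype MP (x axis) of 12 mitosis genes (y axis), on the brightest probe set, which carries the suffix x_at or s_at (filled circles), and on the brightest one without it (open diamonds); no error is drawn. Of the circles 9 lie above zero, and of the diamonds 2.

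The genotype differences in HSC and MP were compared with each other through an interaction term. In 32 of the 51 genes the effect was more positive in HSC than in MP and in 0 more negative, where 5.64% of all genes tested were called and 3.27% were called more positive. The median of the 51 was 1.54 on the log2 scale. Depdc1a (4.75 ± 0.70), Esco2 (4.36 ± 0.61), Ect2 (3.69 ± 0.58) and Bub1 (3.45 ± 0.47) had the largest values, with adjusted p (limma) from 0.00158 to 0.00414. The wildtype HSC arrays of Depdc1a and Esco2 were below 4.64, so these values were taken against a level that may be background. By class the calls were 4 of 5 checkpoint, 6 of 9 kinetochore, 2 of 4 passenger, 5 of 8 mitotic entry, 2 of 5 anaphase and cohesion, 3 of 6 spindle, 3 of 5 condensin and 4 of 6 cytokinesis genes, both Top2a and Mki67, and Depdc1a. The count was 20 without the first and 21 without the third wildtype MP array.

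Among wildtype cells, 48 of the 51 genes were higher in MP than in HSC and 0 lower (limma; 31.8% of all genes tested were called, 13.8% as higher and 18% as lower). The median difference was 1.44, and it was largest in Depdc1a (3.83 ± 0.52), Ect2 (3.59 ± 0.43), Esco2 (3.52 ± 0.46) and Bub1 (3.07 ± 0.35). Depdc1a and Esco2 were below 4.64 on both wildtype HSC arrays, a level that may be background. Bub3 (0.35 ± 0.18), Spc24 (0.43 ± 0.28) and Kif23 (0.30 ± 0.27) were not called. This comparison and the HSC genotype comparison share the wildtype HSC arrays, so a low value there raises both. The mean over the 51 genes was 9.33 ± 0.11 (SD, n = 3) in wildtype MP. Hypomorph HSC had a higher mean than wildtype MP in 22 genes and lay between wildtype HSC and wildtype MP in 29, with a median difference from wildtype MP of -0.07.

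Among hypomorph cells, 0 of the 51 genes were higher in MP than in HSC and 1 was lower, where 11.6% of all genes tested were called, 4.18% as higher and 7.47% as lower. At an unadjusted p under 0.05, 2 were higher and 5 lower (limma). The 1 called gene was Kif23 (-0.83 ± 0.24, adjusted p 0.0408), and the call was lost when any 1 of 7 arrays was left out, among them the first and second of hypomorph HSC and each hypomorph MP array. The median difference was -0.10, and the mean over the 51 genes was 9.07 ± 0.11 (SD, n = 3) in hypomorph MP. Bub1, 3.07 higher in MP than HSC of the wildtype, was -0.38 ± 0.31 apart in the hypomorph. Ube2c (0.50 ± 0.21), Cenpe (0.53 ± 0.23) and Anln (0.57 ± 0.34) had the most positive values, none of them called. The interaction term above is also the test of the change in this cell type difference between genotypes.

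**Figure D5:**
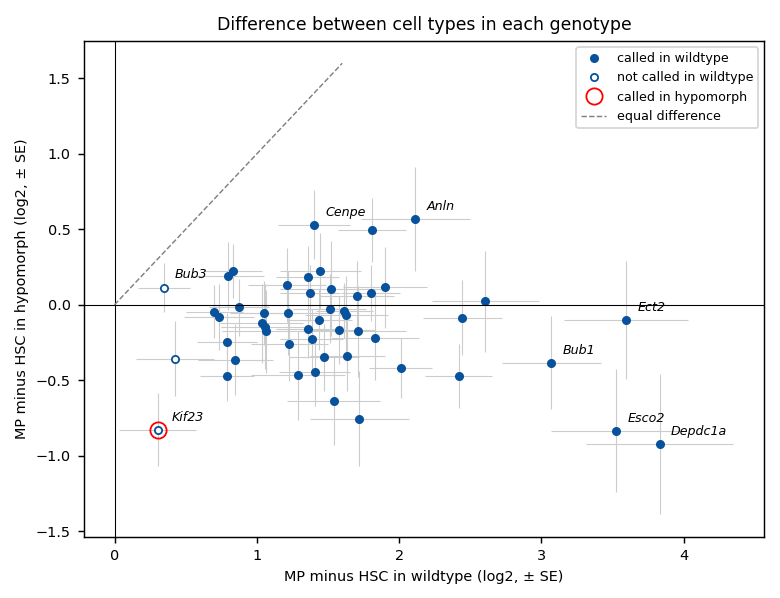
Difference between MP and HSC in wildtype (x axis) against hypomorph cells (y axis), log2 with SE of limma, for each of the 51 genes. Filled points are called in the wildtype, the ring marks the gene called in the hypomorph and the dashed line marks equal differences. All points lie below the dashed line, with hypomorph values between -0.92 and 0.57 and wildtype values between 0.30 and 3.83.

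Wildtype B progenitors had the highest mean of the 5 groups in 47 of the 51 genes, with a mean over the genes of 10.09 ± 0.28 (SD, n = 2). All 51 were higher than in wildtype HSC, where 45.1% of all genes tested were called, 14.9% as higher and 30.2% as lower, with a median difference of 2.19. Esco2 (5.42 ± 0.50) and Depdc1a (4.75 ± 0.57) had the largest and Cenph (0.87 ± 0.27) the smallest difference, and Bub3 was called here too (0.99 ± 0.20, limma, adjusted p 0.00116). Both wildtype HSC arrays were below 4.64 for Esco2 and Depdc1a. With each array left out in turn, 49 were called throughout, Cenph and Birc5 being the others. On its brightest probe set without the suffix x_at or s_at Bub3 differed by -0.03 from HSC. On another, dimmer one it was at 5.43 in B progenitors and 3.53 in wildtype HSC, so its difference varied with the probe set.

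Against wildtype MP, 26 genes were higher in B progenitors and 1 was lower, where 35.9% of all genes tested were called, with 11.2% called higher and 24.7% lower. The median was 0.69. Kif23 was at 9.36 and 9.92 in B progenitors, above all arrays of the other groups, and 1.93 ± 0.27 above MP (limma, adjusted p 7.35e-05). Esco2 (1.90 ± 0.46), Ccnb2 (1.81 ± 0.28) and Ndc80 (1.77 ± 0.21) followed. Ube2c was the gene that was lower, at 8.27 and 8.50 in B progenitors and 8.99, 9.44 and 9.03 in MP (-0.77 ± 0.24, adjusted p 0.0220). With each array left out in turn, 14 of the 27 were called throughout, among them Kif23, Ccnb2 and Ndc80 but not Esco2 and Ube2c. Without the second B progenitor array 16 of the 51 were called, and with each array centred on its median 42 were, a setting that moves the median of all genes in comparisons with B progenitors.

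Other genes of mitosis were taken from lists outside the 51. Of 90 tested, 33 were higher in hypomorph HSC and 2 lower (limma), with a median of 0.63. Over all genes tested, 5.37% were called higher and 5.44% lower in HSC. In MP 0 of the 90 were called, where 0.588% of all genes tested were. Of 23 other kinetochore and centromere genes 12 were higher, led by the cohesin protectors Sgo1 (1.93) and Sgo2a (1.82) and by Cenpi (1.65). Cenpt was lower (-0.96), and Zw10 had the smallest difference (-0.01). Of 4 genes placed in a further checkpoint list only Trip13, an ATPase that remodels Mad2, was higher (1.73). Mad2l2 had the smallest difference of that list (0.39). Of the condensin II subunits Ncapg2 (1.75) and Ncapd3 (1.53) were higher and Ncaph2 was not (-0.02).

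Of 11 cohesin genes Rad21 (1.77) and Cdca5 (1.16) were higher, and Nipbl, the loader, had the smallest difference (-0.01). Of 14 subunits and regulators of the anaphase-promoting complex Cdc27 (1.41) and the inhibitor Fbxo5 (1.01) were higher, with Anapc13 at 0.02. Of 21 other spindle and centrosome genes 9 were higher, led by Cep55 (2.74), which acts in abscission, Plk4 (2.44), the kinase of centriole duplication, and Bora (2.00). The kinesin Kif15 was lower (-0.79), and Ckap5 had the smallest difference (-0.18). Of 15 regulators of mitotic entry 6 were higher, among them Lin54 (2.33) and Lin9 (1.61) of the MuvB core and Bora, which is in both lists. Lin52 had the smallest difference (0.05).

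Markers of other cells moved in the HSC comparison as well, where 5.37% of all genes tested were called higher and 5.44% lower. All 6 mast cell and basophil markers were higher in hypomorph HSC (limma), and the sum of their log2 levels was 43.2 to 49.0 there, 26.3 to 28.9 in wildtype HSC and 53.9 to 55.5 in wildtype MP. Cma1, Fcer1a and Gzmb were below 4.64 on both wildtype HSC arrays, and none of the 6 was below it on all hypomorph HSC arrays. Of 8 granulocyte-monocyte progenitor markers 3 were higher (Ctsg, Ms4a3 and Fcgr3). Mpo (0.62) and Cebpa (0.89) were above zero and Elane (-0.12), Prtn3 (-0.20) and Csf1r (-0.71) below, none of them called. The sums were 66.5 to 69.8 in hypomorph HSC, 56.2 to 60.0 in wildtype HSC and 95.9 to 96.7 in wildtype MP. They do not stand for every marker of the list. Of 6 erythroid markers 3 were higher (Gata1, Rhag and Tfrc), with sums of 45.6 to 47.7, 39.8 to 40.1 and 51.6 to 54.5. Of 9 stem cell markers Slamf1 was higher and Hlf and Ndn were lower, with sums of 81.2 to 84.9 in hypomorph and 86.4 to 88.4 in wildtype HSC. Of 9 B lineage markers 2 were lower and 0 higher, and 0 of 5 neutrophil markers were called. Of 4 T and NK cell markers Nkg7 (1.88, adjusted p 0.000783) and Thy1 (1.12, 0.0138) were higher, while Cd3e (-0.07) and Cd8a (-0.01) were not called. Their sums were 29.2 to 29.8 in hypomorph and 26.2 to 27.1 in wildtype HSC. Among wildtype cells Nkg7 was at 11.25 in MP and 8.49 in HSC, and Thy1 at 4.88 in MP and 7.42 in HSC. Nkg7 and Thy1 therefore need not stand for T or NK cells here. Of 5 megakaryocyte markers Ppbp was lower (-1.86, 0.0135), with sums of 38.8 to 40.2 and 39.4 to 42.4. Of 4 macrophage and stromal markers Col1a2 was lower (-1.35, 0.0224), with sums of 21.2 to 22.0 and 23.7 to 24.1. The part of such cells in the rise of the mitosis genes was not tested.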

How the data were processed

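RNA of sorted marrow cells was measured on Affymetrix arrays. The deposited values are log2 intensities that the authors computed with RMA, per the submitters' processing notes, with no version given in the sources used here. The base of the logarithm was inferred from their range of 1.93 to 14.99. Of 24 deposited columns, 13 hold a normalization of all arrays, used here, and 11 a further one of the HSC and MP arrays (lowest correlation 0.999 with the column of the same label, highest 0.995 with others), used as an alternative and never as further replicates. Detection calls were not part of the analysis, and dim levels may be background.

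In the platform annotation 34958 probe sets had 1 gene symbol, 932 several and 9211 none, and only the first kind was used. The probe set with the highest mean over the arrays stood for its gene. Probe sets were kept if 2 or more arrays, of any group, reached 4.64, so a gene low in wildtype HSC could pass through other groups. A limma model (3.58.1, R 4.3.3) with a mean for each of 5 groups (8 residual degrees of freedom) gave 7 comparisons, with Benjamini-Hochberg adjustment over all 12765 genes in each. The code was tested on simulated data. Promoters came from RefSeq (GRCm38.p6) and were searched with Python 3.11.15.

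The members and lists were chosen with earlier results of these data known. All members could be named. In each class and both genotype comparisons the text names those with the largest and smallest change, and of each other list up to 3 called genes with the largest change and the 1 with the smallest; other genes were named after their values were seen. Printed promoters were those of 5 called members and of the member with the smallest change. The 5 had the largest rise in HSC among called members with a promoter in the RefSeq table that held both elements. Arrays of the same number in different groups did not deviate together (correlations from -0.202 to 0.301), so the numbers were not used as pairs. The alternatives were a replicate block, the further normalization, a fit of the compared arrays alone, a stricter filter (at 7.10, percentile 75) or none, the mean of the probe sets, the probe set of largest spread, centring, a trended and robust prior, array weights and each array left out.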

Additional observations from a re-analysis of the deposited data

Results flagged for a closer look

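The genotype difference was more positive in HSC than in MP in 32 of the 51 mitosis genes by the interaction term of limma (adjusted p under 0.05), and the size of that difference between the cell types is given here for each, on the log2 scale. In the checkpoint class it was 3.45 for Bub1, 1.89 for Ttk, 1.70 for Mad2l1 and 1.30 for Bub1b. Among kinetochore genes it was 1.97 for Cenpf, 1.85 for Cenph, 1.72 for Nuf2, 1.49 for Cenpk, 1.26 for Spc25 and 1.03 for Ndc80, so that Cenpa, Cenpe and Spc24 were the kinetochore genes without a call.

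In the passenger complex it was 2.89 for Aurkb and 1.17 for Cdca8. Among kinases and cyclins it was 2.53 for Melk, 2.18 for Nek2, 1.65 for Ccna2, 1.61 for Plk1 and 1.54 for Aurka. Among anaphase and cohesion genes it was 4.36 for Esco2 and 1.32 for Ube2c, and among spindle genes 2.48 for Nusap1, 1.79 for Kif2c and 1.74 for Kif11. Smc2 (2.58), Ncapg (2.43) and Smc4 (1.54) of condensin, Top2a (1.76) and Mki67 (1.64) were called as well. Among cytokinesis genes it was 3.69 for Ect2, 2.05 for Kif20a, 1.82 for Racgap1 and 1.51 for Prc1, and Depdc1a had the largest value of the 51, 4.75. For Depdc1a and Esco2 both wildtype HSC arrays were below 4.64.

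With each of the 13 arrays left out in turn, 17 of the 32 were called throughout, among them Bub1, Cenpf, Nuf2, Aurkb, Melk, Esco2, Nusap1, Ncapg, Ect2, Racgap1 and Depdc1a. On the probe set with the largest spread, 25 of the 32 calls remained, without Kif2c, Ncapg, Ndc80, Racgap1, Smc2, Smc4 and Top2a. Bub1b, Cdca8, Kif2c, Ube2c, Top2a, Mki67 and Smc4 were among those lost without the first or the third wildtype MP array.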

How the results depend on the processing

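In the HSC genotype comparison, 43 genes were called, and 37 were with the replicate block, 10 with only the arrays compared and 30 to 44 with an array left out. In MP, 0 were called with the replicate block, 25 with array weights (4 higher, 21 lower) and 0 or 1 with an array left out. The interaction gave 26 with the block and 20 to 36 with an array left out. MP against HSC gave 46 with the block and 37 to 48 without an array in the wildtype. In the hypomorph it gave 0 with the block, 2 with the mean of the probe sets, 0 with the probe set of largest spread, 15 with array weights and 0 to 2 without an array. B progenitors against HSC gave 51 with the block and 49 to 51 without an array, and against MP 25 with the block, 42 with centring and 16 to 29 without an array. The share of all genes called under these alternatives is given only for array weights in MP. A change in a count here need not be particular to the mitosis genes. Only the sign of Bub3 was reversed in a call, at -0.029 against HSC and -0.46 against MP in B progenitors. This was on its brightest probe set without the suffix x_at or s_at. Of 8466 further values, 127 changed sign with no call on either side. The replicate numbers are only a hint: 1 of 3 hypomorph and 2 of 3 wildtype MP arrays correlated best with their own number. The cause of these changes in the counts was not tested.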
